A study of Mus musculus with 25 samples.

Results

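The genes described here are the 3 D-type cyclins Ccnd1, Ccnd2 and Ccnd3, the 2 G-type cyclins Ccng1 and Ccng2, and 5 genes for inhibitors of cyclin-dependent kinases (CDKs), namely Cdkn1a, Cdkn1b, Cdkn2a, Cdkn2c and Cdkn2d. They were taken by symbol from the deposited gene counts and make up 10 of the 24411 genes counted. RNA-seq had been run on 25 samples in 9 groups. Bone marrow-derived macrophages (BMDMs) of C57BL/6 mice, grown in medium with 25 ng/ml macrophage colony-stimulating factor (M-CSF) for 4 days, were left as controls (cultured for 4 h), were given LPS (100 ng/ml) plus IFN-γ (100 U/ml) for 1, 4, 12 or 24 h (the labels give no order of addition), or were given IL-4 or IL-13 (10 ng/ml each) for 12 h, with 3 samples in each of these 7 groups. The study calls the groups with LPS plus IFN-γ primed and uses that word for IFN-γ given beforehand, without stating for how long. The hours may therefore be those of LPS alone. RAW264.7, an established mouse macrophage cell line, was cultured for 4 h either alone or with LPS (100 ng/ml) and no IFN-γ, with 2 samples in each group. A single 4 h control thus served every BMDM time point, so hours in culture and treatment cannot be told apart at the other times. RAW264.7 is 1 line and stands here for no other.

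D-type cyclins activate CDK4 and CDK6, which phosphorylate the retinoblastoma protein and let a cell leave G1 phase, and in macrophages their supply depends on growth factors such as M-CSF. Proteins of the INK4 family (encoded by Cdkn2a, Cdkn2c and Cdkn2d) bind CDK4 and CDK6 directly, while those of the CIP/KIP family (Cdkn1a and Cdkn1b) bind cyclin-CDK complexes, above all those of CDK2. Cyclins G1 and G2 are atypical cyclins that are linked to growth arrest rather than to cell cycle entry, and Ccng1 and Cdkn1a are textbook targets of p53.

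The upstream sequences of Cdkn1a are shown because it changed more against control BMDMs than any other of the 10 genes and because 1 of its starts carried a motif that was rare among promoters. RefSeq promoter windows (GRCm38.p6, the 250 bases before each start) were at hand for 8 of the 10 genes, which have 12 annotated starts between them. Ccnd1 and Ccnd2 were not matched. On each line the first 240 of the 250 bases are given 5′ to 3′ on the + strand, the capitals marking the p53 element in the first window and both GC boxes (GGGCGG) in the second.
Cdkn1a, upstream start, chr17:29090729-29090968: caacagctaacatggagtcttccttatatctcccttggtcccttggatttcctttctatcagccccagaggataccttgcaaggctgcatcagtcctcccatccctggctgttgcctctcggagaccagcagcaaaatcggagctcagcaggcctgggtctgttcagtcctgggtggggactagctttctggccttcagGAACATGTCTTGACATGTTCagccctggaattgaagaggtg
Cdkn1a, downstream start, chr17:29093519-29093758: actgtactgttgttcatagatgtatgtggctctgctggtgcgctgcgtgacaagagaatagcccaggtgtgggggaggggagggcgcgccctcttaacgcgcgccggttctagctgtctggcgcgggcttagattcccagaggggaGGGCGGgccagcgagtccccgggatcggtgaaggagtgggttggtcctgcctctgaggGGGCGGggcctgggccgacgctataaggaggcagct
The p53 element lay 51 bases before the upstream start. An element of that kind (the p53 response element with at most 1 base off, the same on both strands) was found in 15 of 32851 promoters (0.0457%) and at 1 of the 12 starts. GC boxes were present at 8 of the 12 starts and in 32.7% of all promoters. The motifs searched for STAT factors (TTCNNNGAA), AP-1 (TGANTCA), E2F (TTTGGCGC) and E-box factors (CACGTG) matched none of the 12 windows, against 7.02%, 6.75%, 0.417% and 6.02% of all promoters. The motifs searched under the names NF-κB and ISRE, the element of interferon regulatory factors, also matched none, against 1.41% and 2.98% of all promoters. The FoxO motif GTAAACA was found at 1 start of Ccnd3 and in 3.17% of promoters. These are matches of letters on either strand, and nothing about binding follows from them.

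All levels below are sense-strand CPM (counts relative to the library total), scaled with TMM factors after removal of the ribosomal RNA gene Rn45s. The libraries held 2378639 to 3357300 gene counts, of which Rn45s took 20.1% to 39.8%, leaving 1502618 to 2532496. Of the reads that were counted, ambiguous or on no annotated gene, 62.7% to 69.1% in each library were on no annotated gene. Macrophage markers summed to 18939 to 32893 CPM in BMDMs and to 8532 to 10265 CPM in RAW264.7, and 8 of the 8 measured were detected in every BMDM group. The 4 fibroblast or stromal markers summed to 52.4 to 109 CPM in BMDM libraries, with Col1a2 the most abundant in controls, and all 4 were at 0 in RAW264.7. Erythroid markers were at 0 throughout, and the summed levels of T cell, B cell, dendritic cell and mast cell markers were at most 12.4 CPM, the T cell value being all Lck. Neutrophil or granulocyte precursor markers moved with all 4 IFN-γ and LPS groups. They summed to 9.23 to 18.2 CPM in controls and to 27.7 to 38.4, 28.7 to 46.7, 26.6 to 28.8 and 21.9 to 24.0 CPM at 1, 4, 12 and 24 h. Lck was at most 1.60 CPM in controls and reached 12.4 CPM at 4 h. The part of these markers in the results at any of these times was not tested. Scaling to total counts in place of TMM moved the median log2-fold change of all genes by -0.58 at 4 h and by -0.22 to -0.35 at the other IFN-γ and LPS times against control, by -0.01 for IL-4 and 0.02 for IL-13, by -0.14 for LPS in RAW264.7 and by 0.25 between the control groups of both cell kinds. A member was called at an FDR of at most 0.01 among all genes tested (quasi-likelihood test of edgeR, p-values adjusted by Benjamini-Hochberg). Of the 10 genes, 9 passed the filter on low counts and Cdkn2a did not. In bulk RNA, fewer cells of one kind and less RNA per cell cannot be told apart.

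The D-type cyclins moved apart from one another in BMDMs given IFN-γ and LPS. Ccnd1 fell, Ccnd2 rose from a low level, and Ccnd3 rose late. In control BMDMs Ccnd2 stood at 4.83, 3.80 and 4.81 CPM, and after 1 h at 3.35, 4.50 and 7.08 CPM. At 4 h it reached 100.0, 93.9 and 127 CPM, at 12 h 106, 89.0 and 47.6 CPM, and at 24 h 31.3, 22.4 and 24.4 CPM. All 9 samples from 4 h onwards lay above all control and 1 h samples, and the 12 h sample at 47.6 CPM lay well below the other two of its group. The log2-fold change against control was 4.56 ± 0.28 (SE) at 4 h (23.5-fold, adjusted p = 2.7e-18), 4.15 ± 0.28 at 12 h and 2.52 ± 0.34 at 24 h, and the drop from 12 h to 24 h was itself called (log2-fold change -1.64 ± 0.20, adjusted p = 1.1e-08).

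Ccnd1, the D-type cyclin most directly tied to growth factor signalling, went the other way. It stood at 36.0, 34.7 and 25.1 CPM in control BMDMs and at 46.4, 46.3 and 36.4 CPM after 1 h, a difference that was not called (log2-fold change 0.42 ± 0.17, adjusted p = 0.050). It was at 11.5, 8.54 and 11.5 CPM at 4 h, at 6.35, 11.7 and 15.3 CPM at 12 h and at 6.84, 4.97 and 5.89 CPM at 24 h, so that none of these 9 samples reached the lowest control. The log2-fold changes were -1.61 ± 0.25, -1.52 ± 0.23 and -2.42 ± 0.25, with adjusted p-values of 1.1e-07, 3.3e-08 and 8.3e-14. The summed fibroblast or stromal markers were at 72.2 to 107 CPM in controls, 65.2 to 109 CPM at 4 h, 57.6 to 72.2 CPM at 12 h and 63.6 to 88.0 CPM at 24 h. The highest 12 h sample was thus only level with the lowest control. The part of these markers in the Ccnd1 result was not tested.

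Ccnd3, often the main D-type cyclin of blood cells, was at 36.0, 42.3 and 35.8 CPM in controls and at 23.9, 31.8 and 27.1 CPM at 4 h (log2-fold change -0.45 ± 0.20, adjusted p = 0.040). It then rose to 81.4, 95.5 and 125 CPM at 12 h and stayed at 88.0, 78.0 and 88.0 CPM at 24 h, every one of these samples above every control. The rise was 1.40 ± 0.15 at 12 h (2.65-fold, adjusted p = 1.7e-13) and 1.15 ± 0.14 at 24 h (adjusted p = 1.6e-10), and the step from 4 h to 12 h was 1.86 ± 0.17. Counting without regard to strand gave 0.759 times the sense counts of Ccnd3, against 1.00 to 1.02 for the other genes. The 12 h sample that was lowest in Ccnd2 was the highest of its group in Ccnd3.

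Levels of different genes can be compared only per length, which was done with the exon length of each gene in the GENCODE annotation of GRCm38. On the scale of CPM per kilobase, Ccnd3 made up 62.9% ± 3.86 (SD, n = 3) of the D-type cyclin RNA of control BMDMs, Ccnd1 34.4% ± 3.99 and Ccnd2 2.74% ± 0.594. At 4 h Ccnd2 made up 52.9% ± 4.79 and was the largest share in all 3 samples, and Ccnd1 was down to 9.39% ± 1.65. At 24 h Ccnd3 took 86.4% ± 1.49. The 3 genes together came to 24.8 ± 2.55 CPM per kilobase in controls, 30.0 ± 2.74 at 4 h, 56.2 ± 5.82 at 12 h and 40.1 ± 3.10 at 24 h, so the make-up changed within a sum that was highest at 12 h in BMDMs.

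**Figure D1:**
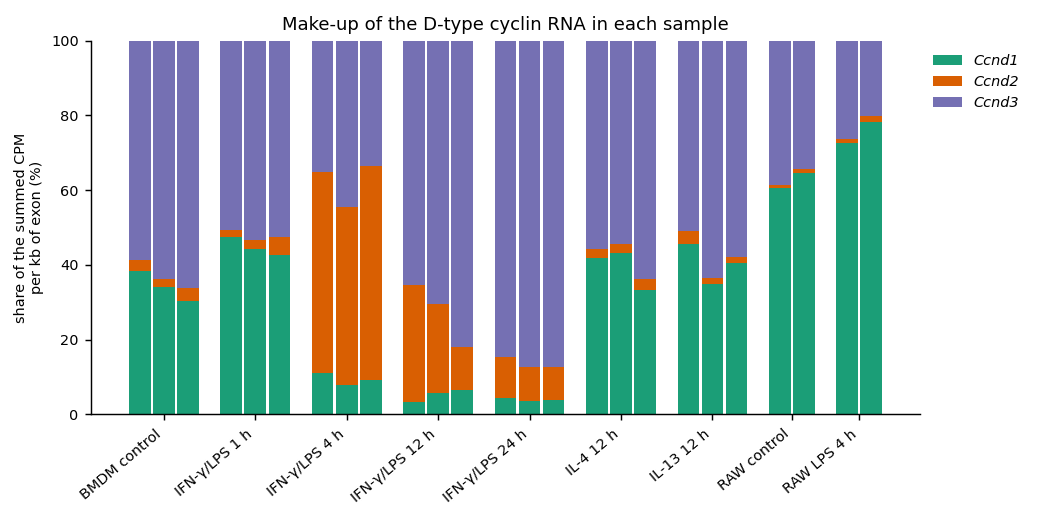
Stacked bars give, for each of the 25 samples, the percent of the summed D-type cyclin level (CPM per kilobase of exon) that came from Ccnd1, Ccnd2 and Ccnd3, with samples grouped by condition along the horizontal axis. Ccnd2 is the widest band in the 3 samples at 4 h of IFN-γ and LPS, Ccnd3 in all 6 at 12 h and 24 h, and Ccnd1 in the 4 RAW264.7 samples.

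The G-type cyclins differed from each other as well. Ccng2, a known FoxO target, rose early and then fell below its control level. Its levels were 55.3, 48.9 and 51.3 CPM in control BMDMs, 135, 144 and 132 CPM at 1 h and 268, 337 and 312 CPM at 4 h. By 12 h they were down to 33.5, 39.0 and 30.0 CPM and by 24 h to 19.1, 12.9 and 21.9 CPM. The ranges of these 5 groups were all apart. The log2-fold change against control was 1.40 ± 0.13 at 1 h, 2.56 ± 0.12 at 4 h (5.90-fold, adjusted p = 2.0e-30), -0.61 ± 0.16 at 12 h and -1.51 ± 0.17 at 24 h (adjusted p = 3.0e-12). Between 4 h and 12 h alone Ccng2 fell by 3.17 ± 0.13 on the log2 scale.

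Ccng1 varied least of the 9 genes tested, between group means of 108 CPM at 4 h and 152 CPM with IL-13. It was not called against control at any IFN-γ and LPS time, although all 3 samples at 1 h (151, 156 and 140 CPM) lay above all 3 controls (117, 124 and 115 CPM), with a log2-fold change of 0.32 ± 0.11 and an adjusted p of 0.012. The step down from 1 h to 4 h was called (-0.46 ± 0.11, adjusted p = 5.2e-04).

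Among the CIP/KIP genes, Cdkn1a, the gene of the inhibitor p21, had the largest change against control. It stood at 25.2, 26.1 and 25.7 CPM in control BMDMs, at 295, 302 and 364 CPM at 1 h, and at 1247, 1159 and 1203 CPM at 4 h. It then dropped to 74.5, 65.0 and 56.5 CPM at 12 h and was at 100.0, 92.9 and 93.9 CPM at 24 h. The spread within groups was small beside these steps, and each of the 5 groups stood clear of the others. The log2-fold change was 3.64 ± 0.12 at 1 h (12.5-fold), 5.55 ± 0.12 at 4 h (46.8-fold, adjusted p = 5.8e-52), 1.35 ± 0.15 at 12 h and 1.90 ± 0.13 at 24 h. The fall from 4 h to 12 h measured -4.20 ± 0.11, and the smaller rise from 12 h to 24 h 0.55 ± 0.12 (adjusted p = 1.9e-04). Per kilobase of exon, Cdkn1a and Cdkn1b were level in control BMDMs (9.44 and 9.42 CPM per kilobase), while at 4 h Cdkn1a led all 10 genes with 443 CPM per kilobase, ahead of Ccng2 with 98.0.

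Cdkn1b, the gene of the inhibitor p27, declined slowly. It was at 39.2, 46.7 and 42.8 CPM in controls, at 30.0, 27.9 and 25.3 CPM at 12 h and at 20.5, 23.4 and 31.6 CPM at 24 h. All 6 late samples lay below all 3 controls. The change was not called at 1 h (-0.02 ± 0.16) or at 4 h (-0.45 ± 0.18, adjusted p = 0.028) and was called at 12 h (-0.63 ± 0.17, adjusted p = 0.0016) and at 24 h (-0.75 ± 0.17, adjusted p = 9.7e-05). The 12 h call was lost when either the second control or the last 12 h sample was left out, with an adjusted p of up to 0.012 over all alternatives.

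Cdkn2c, the INK4 gene with the clearest change, fell to the limit of what this depth can resolve. It had 22, 17 and 13 counts in the control libraries (11.8, 9.23 and 6.95 CPM) and 12, 15 and 16 at 1 h. From 4 h onwards no library held more than 3 counts, and 1 library at 12 h held 0. The log2-fold change was -2.24 ± 0.48 at 4 h (adjusted p = 5.0e-05), -3.43 ± 0.53 at 12 h and -3.23 ± 0.47 at 24 h (adjusted p = 1.5e-08), and with so few counts the order of the 3 late times cannot be read. Cdkn2d was also low, between 3 and 46 counts in a library, and passed the test at no IFN-γ and LPS time, with log2-fold changes of -0.93 ± 0.38 at 1 h (adjusted p = 0.048) and -0.96 ± 0.38 at 12 h (adjusted p = 0.030).

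Cdkn2a, whose locus encodes both an INK4 protein and the p53 regulator ARF, was barely detected. It had 0 to 5 counts in each BMDM library and 34 in all 21 of them, which is 0.887 CPM (no TMM factor) with an exact 95% Poisson interval of 0.614 to 1.24 that covers counting error only. No RAW264.7 library had a count of it, and 0 counts in 4 libraries allow a level of up to 0.339 CPM at 3 counts, at least 4.65-fold below the 1.58 CPM of control BMDMs. That control level rests on 8 counts (exact 95% Poisson interval 0.680 to 3.10 CPM), 5 of them in the first control library, and without it the level was 0.883 CPM and the bound 2.61-fold. Cdkn2a did not pass the filter on low counts, so no call was made for it among the BMDM groups. The 24 h libraries held 2, 5 and 2 counts and the 12 h libraries 1, 0 and 1, too few to read a change.

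**Figure D2:**
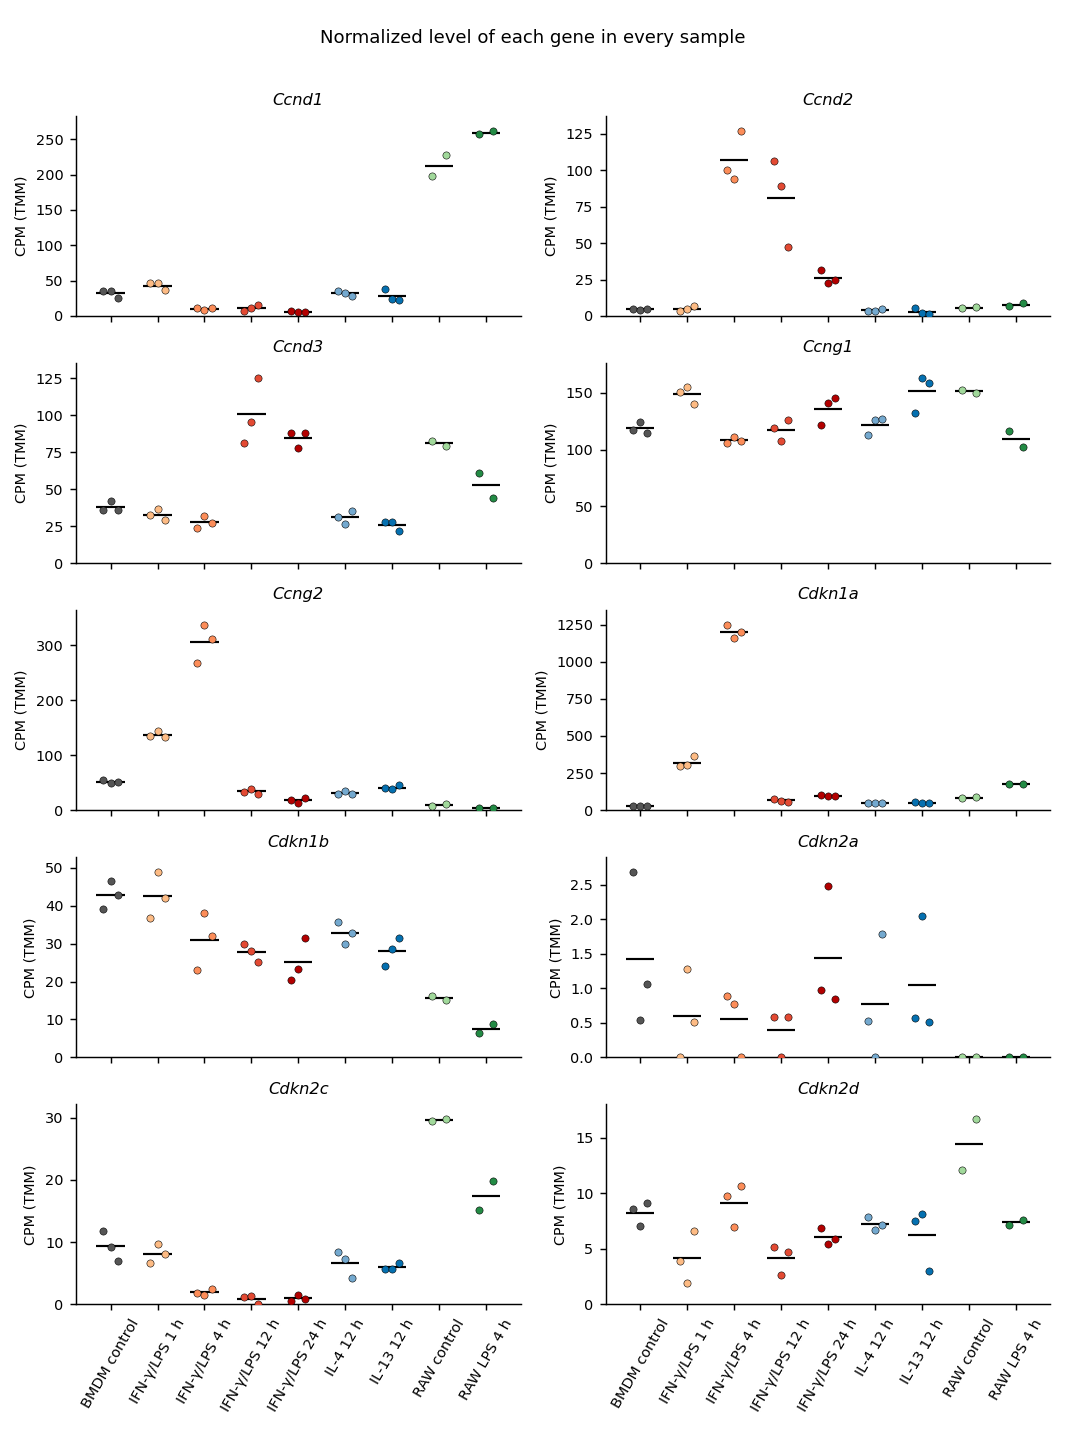
Each panel shows 1 gene, with a point for the level in each sample (CPM, TMM-scaled, linear axis from 0) and a line at the mean of each of the 9 groups (3 samples per BMDM group, 2 per RAW264.7 group). Cdkn1a and Ccng2 peak at 4 h of IFN-γ and LPS, Ccnd2 is high at 4 h and 12 h, Ccnd3 at 12 h and 24 h, and Ccnd1 and Cdkn2c are highest in RAW264.7.

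By time, 2 of the 9 genes tested rose and 0 fell at 1 h, where 24.9% of all genes tested were called in either direction. At 4 h 3 rose and 2 fell, against 48.5% of all genes, and with scaling to total counts the same comparison gave 3 up and 5 down. At 12 h 3 rose and 4 fell (44.9% of all genes), and at 24 h again 3 rose and 4 fell (42.8%). The median log2-fold change of the 9 genes was 0.17, -0.13, -0.61 and -0.44 at 1, 4, 12 and 24 h, and that of all genes tested lay between -0.09 and -0.01. Ccng2 and Cdkn1a were called at all 4 times, Ccnd1, Ccnd2 and Cdkn2c at 3, Ccnd3 and Cdkn1b at 2, and Ccng1 and Cdkn2d at none. Between neighbouring times, 6 genes were called from 1 h to 4 h (3 up and 3 down, or 3 and 5 on total counts, with 36.3% of all genes called), 3 from 4 h to 12 h (1 up and 2 down, or 2 and 2 on total counts, with 33.4%) and 3 from 12 h to 24 h (1 up and 2 down, with 13.6%).

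**Figure D3:**
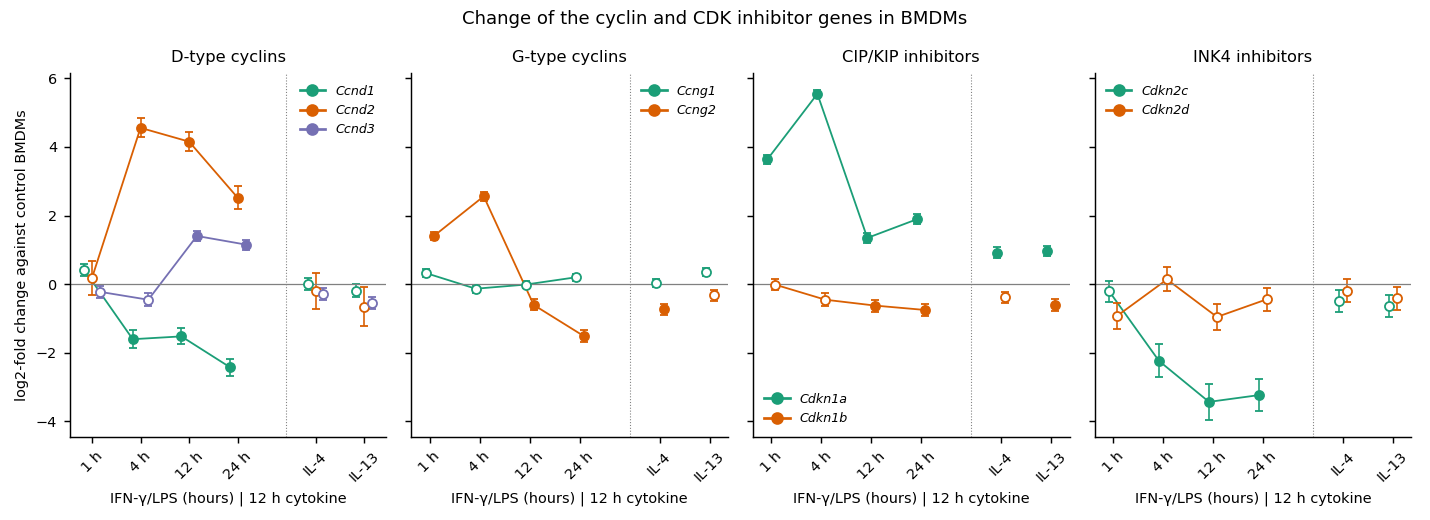
The log2-fold change of each gene against control BMDMs (vertical axis, bars are SE) is drawn by family for 1, 4, 12 and 24 h of IFN-γ and LPS (equally spaced, joined by lines) and for IL-4 and IL-13 at 12 h, with filled points for an FDR of at most 0.01. Ccnd1 and Ccnd2 part at 4 h, Ccng2 turns from above to below the control level between 4 h and 12 h, and the IL-4 and IL-13 points all lie within 1 log2 unit of 0.

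IL-4 and IL-13 moved few of these genes. Cdkn1a was the common one, at 50.8, 47.3 and 47.7 CPM with IL-4 and at 55.2, 48.1 and 47.1 CPM with IL-13, every sample above every control. Its log2-fold change was 0.92 ± 0.15 with IL-4 (1.89-fold, adjusted p = 3.3e-06) and 0.96 ± 0.15 with IL-13 (1.95-fold, adjusted p = 6.5e-07). IL-4 also lowered Ccng2, to 28.8, 35.0 and 29.8 CPM (-0.73 ± 0.16, adjusted p = 5.1e-04). With IL-13 Ccng2 was at 40.3, 37.9 and 45.6 CPM, every sample below every control, but was not called (-0.33 ± 0.15, adjusted p = 0.15). The call that IL-13 added was Cdkn1b, at 24.2, 28.6 and 31.4 CPM (-0.60 ± 0.17, adjusted p = 0.0081). It missed the cutoff when any 1 control sample or the first or second IL-13 sample was left out (adjusted p of up to 0.055). The call was also lost with DESeq2, unstranded counts and total counts. With IL-4, Cdkn1b was at 35.6, 30.0 and 32.8 CPM, likewise every sample below every control, and was not called. With 1 gene up and 1 down under each cytokine, the background was 6.25% of all genes called for IL-4 and 8.32% for IL-13, where scaling to total counts gave 2 up and 0 down. Both cytokines share the control samples. Compared directly, IL-13 and IL-4 differed in 0 of the 9 genes by edgeR (2 at an unadjusted p under 0.05, 0 by DESeq2), with 0.0754% of all genes called. Ccnd1, Ccnd2 and Ccnd3 were not called under either cytokine, and Ccnd1 with IL-4 (35.6, 32.3 and 28.0 CPM) had an estimated log2-fold change of 0.01 ± 0.18.

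The antisense share of Rn45s, a property of the libraries and not of these genes, was 0.0386% to 0.0543% of Rn45s counts in controls, 0.00996% to 0.0214% with IL-4, 0.00603% to 0.0117% with IL-13 and 0.0104% to 0.0162% at 24 h of IFN-γ and LPS, against 0.0665% to 0.0674% at 4 h and 0.0827% to 0.122% at 12 h. It was therefore below every control with IL-4, with IL-13 and at 24 h and above every control at 4 h and 12 h, and its part in the results of these groups was not tested.

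At 12 h, where all 3 stimuli can be compared at the same time, IFN-γ and LPS separated from IL-4 and IL-13 mainly through the D-type cyclins and Cdkn2c. Against IL-4, Ccnd2 was higher by 4.35 ± 0.29 and Ccnd3 by 1.71 ± 0.15 on the log2 scale, while Ccnd1 was lower (-1.53 ± 0.23, adjusted p = 3.5e-08), as was Cdkn2c (-2.95 ± 0.57, adjusted p = 9.6e-06). Against IL-13 the values were 4.81 ± 0.31 for Ccnd2, 1.96 ± 0.16 for Ccnd3, -1.33 ± 0.24 for Ccnd1 and -2.80 ± 0.58 for Cdkn2c. Cdkn1a was near the cutoff in both comparisons (0.43 ± 0.13, adjusted p = 0.0048, and 0.39 ± 0.13, adjusted p = 0.0099), and neither call held on total counts or with DESeq2 (adjusted p of up to 0.62 and 0.94). Against IL-4 the Cdkn1a call was also lost without the first or the second 12 h sample or the second or the last IL-4 sample. Against IL-13 it was lost under 28 alternatives, not counting the size cutoffs of the study. Ccng1 was lower than with IL-13 (-0.37 ± 0.11, adjusted p = 0.0027), a call lost without the second 12 h sample or the second or the last IL-13 sample. In all, 3 genes were higher and 2 lower against IL-4, and 3 higher and 3 lower against IL-13, with 41.0% of all genes called in each comparison. On total counts the split was 2 higher and 4 lower in both.

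Other cell cycle genes, from lists that include no gene of the 10, gave the setting in which these changes were measured. The share of all genes called (24.9%, 48.5%, 44.9% and 42.8% at 1, 4, 12 and 24 h) is the background for each list. Of 17 S phase and mitosis markers, 14 fell and 2 rose at 4 h (14 and 1 on total counts, where Pcna turned from 0.45 to -0.13), and 14 fell and 0 rose at 12 h and again at 24 h, with a median log2-fold change of -1.35, -1.34 and -1.23. The falls at 4 h included Cdc20, an activator of the anaphase-promoting complex (-3.32 ± 0.73), and Kif11, a spindle motor (-2.65 ± 0.32). Mki67, the gene of the proliferation marker Ki-67, stood apart with a rise of 2.43 ± 0.18 at 1 h and of 2.13 ± 0.20 at 4 h. Among the 5 E, A and B cyclins, Ccna2 fell at 4, 12 and 24 h (-2.33 ± 0.30, -2.63 ± 0.28 and -4.19 ± 0.33) and Ccne1 rose at 4 h (2.95 ± 0.28). In that list 1 rose and 2 fell at 4 h (1 and 4 on total counts), and 0 rose and 4 fell at 12 h and at 24 h.

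Of the CDKs that the D-type cyclins activate, Cdk6 rose at 4 h (1.61 ± 0.15) and was below control at 12 h (-0.59 ± 0.18), and Cdk4 fell at 4 h (-0.89 ± 0.13). The 5 kinases listed counted 1 up and 3 down at 4 h. Of the 12 retinoblastoma and E2F family genes tested, 2 rose and 6 fell at 4 h (1 and 7 on total counts), among them Rbl1 upwards (2.59 ± 0.14) and E2f2 downwards (-4.92 ± 0.71). Cdkn1c, the remaining CIP/KIP gene, fell from 23.1 to 40.2 CPM in controls to 3.86 to 5.56 CPM at 1 h (-2.66 ± 0.31, adjusted p = 3.1e-11) and to 0 to 3.25 CPM at 12 h (-4.35 ± 0.40), and it also fell with IL-13 (-1.62 ± 0.26). Cdkn2b, which neighbours Cdkn2a, had 52 counts in the 21 BMDM libraries and was not tested.

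For the factors that are known to act on members of the set, p53 and 12 of its known targets gave 5 up and 2 down at 1 h (4 and 3 on total counts) and 6 up and 4 down at 4 h (4 and 6 on total counts, where Bax turned from 0.37 to -0.21). Mdm2, the ubiquitin ligase of p53, rose at 1 h (2.19 ± 0.12), and so did Btg2, an antiproliferative gene (3.54 ± 0.13), while Sesn1, a sestrin, fell by 2.22 ± 0.24 at 1 h and by 4.54 ± 0.38 at 4 h. Members of this list went both ways at 1 h and at 4 h, and the part of p53 in the rise of Cdkn1a was not tested. FoxO factors and their known targets counted 2 up and 1 down at 1 h, 0 up and 2 down at 4 h, where total counts gave 0 and 4 and where 48.5% of all genes were called, and 0 up and 4 down at 12 h and at 24 h. Irs2, an insulin receptor substrate, rose by 2.14 ± 0.17 at 1 h and was at -2.99 ± 0.32 at 12 h, and Bcl2l11, a proapoptotic gene, rose by 1.66 ± 0.10 at 1 h and was at -3.24 ± 0.16 at 12 h. Neither was called at 4 h (Irs2 at -0.54 ± 0.24 and Bcl2l11 at 0.04 ± 0.11). The genes of that list called lower at 4 h were the factors Foxo3 (-2.89 ± 0.31) and Foxo4 (-1.30 ± 0.33). Of the 5 genes for turnover of cyclins and inhibitors, 0 rose and 3 fell at 24 h, against 42.8% of all genes called, with Skp2, the ligase subunit for p27, at -0.98 ± 0.24. In the same list at 4 h, Ambra1 was called higher (0.77 ± 0.18), and Fbxo31 (-4.69 ± 0.57) and Skp2 (-1.93 ± 0.33) were called lower. Scaling to total counts moved the median of all genes by -0.58 at that time. Of the 10 transcriptional and other cyclins, 4 rose and 3 fell at 4 h (0 and 4 on total counts), Ccnf being lowest (-2.08 ± 0.53).

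RAW264.7 cells held these genes at other levels than BMDMs before any stimulus. M-CSF and culture medium also differed between both cell kinds, so their part cannot be told apart from that of the cell kind. Ccnd1 was at 197 and 228 CPM in the RAW264.7 controls, both far above the highest BMDM sample of any group (46.4 CPM), with a log2-fold change of 2.73 ± 0.15 against control BMDMs (6.65-fold, adjusted p = 9.7e-28). Cdkn2c was at 29.5 and 29.7 CPM (1.66 ± 0.24), Cdkn1a at 82.3 and 86.3 CPM (1.71 ± 0.14) and Ccnd3 at 82.6 and 79.4 CPM (1.09 ± 0.15). Ccng2 was lower, at 7.29 and 11.6 CPM (-2.45 ± 0.21), and so was Cdkn1b, at 16.3 and 15.2 CPM (-1.44 ± 0.20). With Ccng1 (0.35 ± 0.11, adjusted p = 0.0043) that made 5 genes higher and 2 lower, and 65.6% of all genes were called in this comparison. The Ccng1 call was lost when either RAW264.7 control or the first or the last BMDM control was left out. Both an inhibitor of the CDK4 and CDK6 kinases and a cyclin that activates them were thus higher in the line. Its S phase and mitosis markers were higher for 17 of 17 (median log2-fold change 3.21) and its E, A and B cyclins for 5 of 5. Cdkn1c was at 0 in all 4 RAW264.7 libraries. With 3 counts taken as the floor and no TMM factor, it was 97.1-fold or more below control BMDMs. That bound was 80.8-fold without the second control. Per kilobase, Ccnd1 made up 60.5% and 64.6% of the D-type cyclin RNA of the 2 RAW264.7 controls.

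After 4 h of LPS in RAW264.7, Cdkn1a rose from 82.3 and 86.3 CPM to 179 and 180 CPM (1.09 ± 0.12, 2.13-fold, adjusted p = 9.9e-12). Falling genes were Cdkn1b, from 16.3 and 15.2 to 6.37 and 8.67 CPM (-1.05 ± 0.28, adjusted p = 0.0024), Cdkn2c, to 15.1 and 19.8 CPM (-0.75 ± 0.22, adjusted p = 0.0072), Ccnd3, to 61.3 and 44.4 CPM (-0.62 ± 0.15, adjusted p = 0.0011), and Ccng1, to 116 and 102 CPM (-0.47 ± 0.12, adjusted p = 0.0016). Ccnd1 (257 and 262 CPM) and Ccnd2 (6.77 and 9.01 CPM) were not called. That is 1 gene up and 4 down against 18.5% of all genes, and of these only Cdkn1a stayed called with any 1 library left out. The count of 5 fell to 2 without the first or the second RAW264.7 control or without the second LPS sample, and to 3 without the first LPS sample. The 17 S phase and mitosis markers counted 0 up and 12 down in the same comparison.

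**Figure D4:**
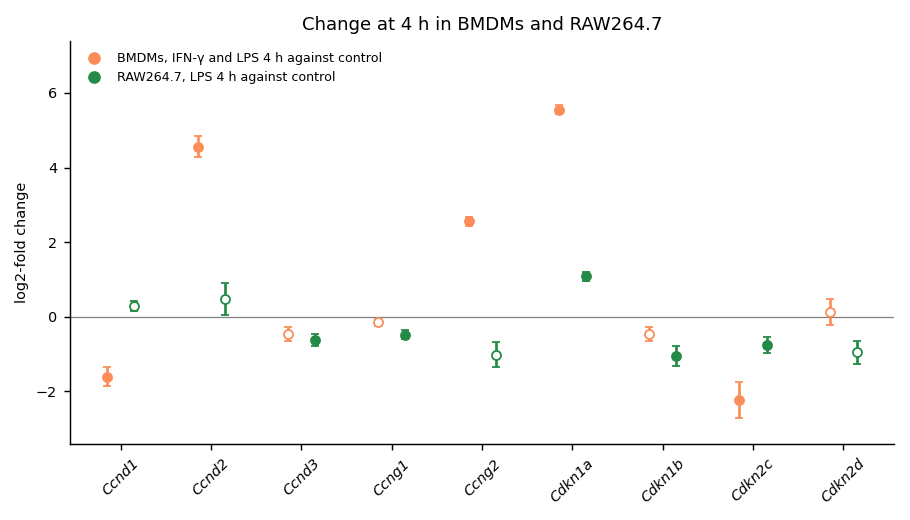
The log2-fold change at 4 h (bars are SE, filled points for an FDR of at most 0.01) is set side by side for BMDMs given IFN-γ and LPS and for RAW264.7 given LPS, each against its own control. The largest gaps are at Cdkn1a, Ccnd2 and Ccng2, and at Ccnd1 the BMDM point is below 0 and the RAW264.7 point is not.

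The difference between the 2 changes at 4 h was tested directly. It was called for 4 of the 9 genes, against 25.0% of all genes (1 higher in RAW264.7 and 3 lower, or 2 and 3 on total counts). The RAW264.7 change was lower by 4.46 ± 0.18 on the log2 scale for Cdkn1a (adjusted p = 4.7e-34), by 4.07 ± 0.59 for Ccnd2 and by 3.57 ± 0.36 for Ccng2, and it was higher by 1.89 ± 0.28 for Ccnd1 (adjusted p = 7.4e-08). The BMDMs received IFN-γ and had been grown with M-CSF, and the line had neither. Per the methods of the study, the culture media differed as well. Cell kind, IFN-γ, M-CSF and medium thus cannot be told apart here. After stimulation the level of Ccng2 was 268 to 337 CPM in BMDMs and 4.38 to 4.85 CPM in RAW264.7 (log2 difference -6.03 ± 0.20), and 7 of the 9 genes differed, 3 higher and 4 lower in RAW264.7, with 66.2% of all genes called. Scaling to total counts moved the median log2-fold change of all genes by 0.69 between these stimulated groups.

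Ordered by group mean, the ranges of neighbouring groups separated best for Cdkn1a, where IFN-γ and LPS at 4 h, at 1 h, RAW264.7 with LPS, 24 h, RAW264.7 control and 12 h followed one another without overlap, and IL-13 and IL-4 overlapped each other above the control. For Ccnd2 the 4 h and 12 h groups overlapped at the top, 24 h and RAW264.7 with LPS came next without overlap, and the remaining groups overlapped their neighbours. For Cdkn1b the 6 BMDM groups other than control formed a chain in which neighbours overlapped, apart from a gap between 1 h and IL-4, with both RAW264.7 groups below. For Ccng1 each group overlapped the next.

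The genes whose pattern over the 9 group means was most like each member (Pearson correlation of log2 CPM over 9 groups, a description in which all genes share the same libraries) were Ccna2, Otud6b and Prr11 for Ccnd1 (r of 0.98 to 0.99), Eif2ak2, 9330175E14Rik and Nos2 for Ccnd2 (0.98 to 0.99) and D10Jhu81e, Pgd and Cd33 for Ccnd3 (0.97 to 0.98). For Ccng2 they were Fbxo30 and Epb4.1l2, for Cdkn1a Gabpb1, Fam133b and Sdc4, for Cdkn1b Taok3, Ttc7 and Lats2, for Cdkn2c Glce, 2610507B11Rik and Sept6, and for Cdkn2d Bahcc1, Rprd1b and Fbxw9. Ccng1 had no close match, its nearest being Etv5, Shb and Msh3 (0.82 to 0.83).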

How the data were processed

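The deposited files, 1 per sample, are the gene counts that STAR writes (whole reads per gene, unstranded and for each strand). Per the methods of the study, the authors depleted ribosomal RNA, although the labels give the molecule as polyA RNA. Per the labels and the methods, they made strand-marking libraries, processed the reads with CASAVA 1.8.2 and Trimmomatic 0.33 and aligned them to mm10 with STAR 2.5.1. The annotation release is not given in the sources used here. The kit marks strand, and the column that holds the sense counts was used. The samples were grouped by their labels, and the study states that each came from independent RNA. The p-values measure the spread between these samples. Replicates of a group differed by more than sampling noise in all 23 pairs (chi-square per degree of freedom 1.30 to 4.53), so none was merged.

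Rn45s was left out of library sizes. Genes were filtered with filterByExpr, scaled by TMM (factors 0.717 to 1.32) and fitted with edgeR 4.0.16 (robust quasi-likelihood, R 4.3.3) with 1 mean for each of the 9 groups over all 25 samples. In each of 16 comparisons, p-values were adjusted by Benjamini-Hochberg over the 10612 genes tested, and a gene was called at an FDR of at most 0.01. The test was tried on simulated counts first. CPM values are TMM-scaled, and errors are SD for levels and SE for log2-fold changes. Depth limits the precision for genes with few counts, and the floor for a count of 0 was 3 counts. Gene lengths came from GENCODE (GRCm38) and the promoter windows from RefSeq (GRCm38.p6). The annotation behind the counts may differ from both.

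The members and the gene lists were chosen with earlier results of these data known. From each list at most 4 genes with the largest absolute log2-fold change at an FDR of at most 0.01 in a comparison were named. Cdkn2b, Col1a2 and Lck were named outside that rule, after their values were seen. For each member that passed the filter, the 3 genes with the highest Pearson correlation over the 9 group means (prior count 2) were named, except 1 that is not reported here. The alternatives were DESeq2 1.42.0, other scalings and filters, unstranded counts, Rn45s left in, a replicate block, only the groups compared, an FDR of 0.05, the size cutoffs of the study, and each of the 25 samples left out in turn.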

Additional observations from a re-analysis of the deposited data

Results flagged for a closer look

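The change at 4 h differed between the cell kinds by a direct test for 4 genes. Taking the change in RAW264.7 with LPS minus that in BMDMs with IFN-γ and LPS, the log2 difference was 1.89 for Ccnd1, -4.07 for Ccnd2, -3.57 for Ccng2 and -4.46 for Cdkn1a. Only the BMDMs received IFN-γ and M-CSF, and the media differed. The share of each in these differences cannot be told apart from that of the cell kind.

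Counts on the antisense strand, which no comparison above used, were higher in every library of a treated group than in every library of its control for 4 genes. Cdkn1a had 6 antisense counts over the 3 libraries at 1 h and 17 at 4 h, with 0 in the controls, which is 0.350% and 0.389% of its sense counts. Ccng2 had 9 at 4 h with 0 in the controls (0.806% of its sense counts). In RAW264.7 with LPS, Ccnd1 had 9 (4 and 5 a library, against 2 and 3 in the controls) and Ccnd3 had 7 (3 and 4, against 1 and 2). These are 0.642% and 2.48% of their sense counts. Over all genes together, antisense counts were 0.632% to 1.06% of sense counts in each library. The share of all genes with such a pattern is not given here. With groups of 2 or 3 samples, no test for a single outlying sample was made.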

How the results depend on the processing

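The size cutoffs of the study are not among the alternatives counted in this paragraph, and they removed further calls, as given below. Of the 71 called log2-fold changes of single members, 61 stayed called in the same direction under every alternative counted that gave a value. The other 10 lost the call under at least 1, and none changed sign in 2395 recalculations. Cdkn1a at 12 h against IL-13 was the weakest, uncalled under 28 of these alternatives (adjusted p of up to 0.94). It was followed by Cdkn1a at 12 h against IL-4, Cdkn1b with IL-13 and Cdkn2c with LPS in RAW264.7, each uncalled under 8.

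The number of members called moved by over 1.5 times as follows, and the cause was not tested beyond what each rule does. An FDR of 0.05 gave 5 in place of 2 at 1 h and 4 in place of 2 with IL-13. The size cutoffs of the study gave 1 at 1 h, 3 at 12 h, 1 from 12 h to 24 h, 1 with IL-13, 3 at 12 h against IL-13, 0 for LPS in RAW264.7 and 2 between both controls. Total counts gave 8 at 4 h. At least 10 counts in every sample gave 2 at 12 h against IL-4 and 3 against IL-13, with fewer genes tested. A fit of only the groups compared gave 3 at 12 h against IL-4. DESeq2 gave 1 with IL-13 and 3 for LPS in RAW264.7, and unstranded counts gave 1 with IL-13. With single samples left out the number was 2 to 3 at 1 h, 5 at 4 h, 6 to 7 at 12 h, 7 at 24 h, 6 to 7 from 1 h to 4 h, 3 to 4 from 4 h to 12 h and from 12 h to 24 h, 2 with IL-4, 1 to 2 with IL-13 (1 without any 1 BMDM control or the second IL-13 sample), 0 for IL-13 against IL-4, 4 to 5 at 12 h against IL-4, 4 to 6 against IL-13, 2 to 5 for LPS in RAW264.7, 6 to 8 between both controls, 7 between the stimulated cells and 4 for the difference of changes.

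Samples with the same replicate number did not deviate together (mean correlation 0.00164 over 93 pairs, against -0.00084 for different numbers), and 8 of 25 samples correlated best with their own number, so the numbers were not taken as pairs. A replicate block gave 5 in place of 6 members at 12 h against IL-13 and changed no other count. Depth limits Cdkn2a, Cdkn2c and Cdkn2d most.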
